A study of Mus musculus with 39 samples.

Results

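Heparan sulfate is built by a small set of Golgi enzymes, and 10 of the 47643 genes counted in these libraries are described here: *Ext1*, *Ext2*, *Ndst1*, *Ndst2*, *Ndst3*, *Ndst4*, *Glce*, *Hs2st1*, *Hs6st1* and *Hs3st3b1*. They were picked by name from the genes of this pathway with earlier results of these data in view, and which of those results weighed in the choice is not recorded, so every level and fold change of these 10 genes is given as a description without a p-value. Calls of these genes, and counts of them that meet a p threshold, rest on tests of the same data and are descriptions too. All 10 were found once in both count tables. Each of 35 libraries was labelled as 1 mouse epiblast from an intercross of *Stat3*+/- mice on a CD1 background, from which the study removed extraembryonic ectoderm and visceral endoderm by dissection, and genotyped by PCR on the extraembryonic tissue. Of the *Stat3* null epiblasts 4 were taken at embryonic day E5.5, 8 at E6.5 and 3 at E7.5, and of the wild-type (WT) ones 2, 9 and 9. The null allele has a neomycin resistance gene in place of some exons in all cells of the embryo, so remaining exons could still be counted. A further 4 libraries came from epiblast stem cells (EpiSCs), which are lines derived from postimplantation epiblasts and here were grown with FGF2, Activin A and the Wnt inhibitor XAV939. These were null lines 2 and 6 and WT lines 8 and 13, 1 library a line.

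Heparan sulfate is a linear sugar chain attached to core proteins such as syndecans and glypicans. EXT1 and EXT2 form the polymerase that extends the chain, and the NDST enzymes then remove acetyl groups from glucosamine and replace them with sulfate, which opens the chain to the later steps. GLCE turns glucuronic into iduronic acid, and HS2ST1, HS6ST1 and HS3ST3B1 add sulfate at the 2-O, 6-O and 3-O positions. The resulting patterns bind FGFs, BMPs, Wnts and other ligands, and embryos without chain elongation or N-sulfation are known to fail at gastrulation or later in development.

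The libraries that stood apart are named first because several enzymes differed most in them. Levels are CPM, the counts scaled to library totals after TMM normalisation, computed for the 35 epiblast libraries together and for the 4 EpiSC libraries separately, and the tables were prepared with different kits, so a level in EpiSCs was never tested against one in epiblasts. *Stat3* itself lay at 9.33 to 22.7 CPM in E5.5 null against 39.2 to 51.1 in WT, at 1.43 to 8.1 against 5.66 to 28.9 at E6.5, at 1.22 to 1.5 against 4.63 to 24.3 at E7.5, and at 3.14 to 3.52 against 18.1 to 22.9 in EpiSCs. *Pou5f1*, which marks the epiblast, was at 0.662 CPM in E5.5 null 1 and at 99.3 to 292 CPM in the other 5 libraries of that stage. The library labelled E5.5 null 1 also had *Nanog*, *Fgf5* and *Otx2* at 0 and 8 extraembryonic ectoderm markers at 1109 CPM, which goes against its label, and the other 5 of its stage had 4188 to 8489 CPM over 11 visceral endoderm markers. A single marker, *Cubn*, made up 2800 to 6340 CPM of the sums in those 5. E6.5 null 1 had summed levels of 8 extraembryonic ectoderm markers of 840.5 CPM against 8.67 to 48.85 CPM in the other 7 null epiblasts of its stage. E6.5 WT 3 had 3000 CPM over 11 visceral endoderm markers against 35.7 to 750.8 CPM in the other 8. Of the E6.5 null epiblasts, null 3 had 3494, null 4 2287 and null 8 1764 CPM over these markers, and the others 98.63 to 573.1 CPM. Those 3 null epiblasts were not counted among the libraries that stood apart. E7.5 WT 3 had 7 epiblast markers at 1488 CPM against 301.4 to 648.6 CPM in the other 8. Total counts lay between 22941210 and 79013960 in epiblasts and between 63445877 and 127583699 in EpiSCs, and a gene without counts could still lie at up to 3 counts, which is 0.0405 to 0.129 CPM in epiblasts and 0.0234 to 0.0469 CPM in EpiSCs and covers counting error only. Fewer cells of a type and less RNA per cell cannot be told apart in such bulk libraries.

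*Hs3st3b1* and *Ndst3* varied most over the groups, so the sequence just before their annotated starts is shown, from the RefSeq promoter table of GRCm38.p6, 5′ to 3′ on the strand of the gene, with CG dinucleotides in capitals and without any base that GENCODE vM21 places in an exon of the gene. The table holds 8 windows of 300 bases for 7 of the 10 genes. *Ndst3* has 2 RefSeq starts here, called outer and inner by their order along the gene. Both lie inside the GENCODE vM21 locus of *Ndst3*, so its outermost start there has no window. The first line is chr11:63922291-63922534 on the minus strand, the second chr3:123672578-123672727 and the third chr3:123619502-123619700, both on the minus strand.
Hs3st3b1: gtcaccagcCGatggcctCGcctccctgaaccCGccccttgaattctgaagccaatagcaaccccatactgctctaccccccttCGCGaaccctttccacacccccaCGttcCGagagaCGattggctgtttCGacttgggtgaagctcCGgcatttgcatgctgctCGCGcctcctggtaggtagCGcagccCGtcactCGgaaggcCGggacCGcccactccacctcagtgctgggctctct
Ndst3, outer start: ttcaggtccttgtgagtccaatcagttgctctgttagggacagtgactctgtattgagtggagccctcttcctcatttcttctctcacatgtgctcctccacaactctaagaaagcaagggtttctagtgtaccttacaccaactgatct
Ndst3, inner start: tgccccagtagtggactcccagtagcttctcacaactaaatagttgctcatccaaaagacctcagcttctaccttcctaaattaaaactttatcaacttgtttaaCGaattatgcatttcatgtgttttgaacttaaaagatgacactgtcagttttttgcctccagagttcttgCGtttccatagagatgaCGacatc
The 244 bases before *Hs3st3b1* hold 17 CG, while those before *Ndst3* hold 0 in 150 bases at the outer start and 3 in 199 bases at the inner one. In the whole windows of 300 bases the counts were 23 for *Hs3st3b1* and 1 and 3 for *Ndst3*, against a median of 7 over all 32851 windows, and the other 5 genes with a window had 18 (*Ext2*), 20 (*Ndst2*), 30 (*Glce*), 32 (*Hs2st1*) and 47 (*Hs6st1*). The palindrome TTCNNNGAA, the general STAT motif, was searched on both strands, which for a palindrome is 1 search. It was found in none of the 8 windows and in 8.3% of all windows, and the absence of these letters from so short a stretch says nothing about binding of STAT3.

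Of the 10 enzymes 7 were detected in every epiblast, *Ndst3* and *Hs3st3b1* in a part of them and *Ndst4* in none. Over the 35 epiblast libraries the ratio of the highest to the lowest CPM was 2.13 for *Hs2st1*, 2.96 for *Ext1*, 3.36 for *Hs6st1*, 3.89 for *Ndst1*, 3.98 for *Ext2*, 6.14 for *Ndst2* and 8.79 for *Glce*. *Ndst3* had no counts in 13 of the 35 libraries and *Hs3st3b1* in 2. *Ndst4* had no counts in any epiblast library. To set genes against each other, CPM were divided by the length of the union of the exons of each gene in kilobases. On that scale *Hs6st1* had the highest mean in 7 of the 8 groups, between 10.3 CPM per kb in E7.5 null and 15.7 in E6.5 null, and it lay above the next gene, *Ext1* in all 6 groups outside E5.5, in every library of those groups. In E5.5 null epiblasts the mean of *Hs3st3b1* was higher still, 13.6 CPM per kb against 12.4 for *Hs6st1*, but it exceeded *Hs6st1* in only 1 of the 4 libraries. Neighbours in the middle of the order were not separated: at E6.5 *Ext2* was above *Ndst1* in 4 of 8 null and 5 of 9 WT libraries and *Ndst1* above *Glce* in 5 of 8 and 5 of 9.

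**Figure D1:**
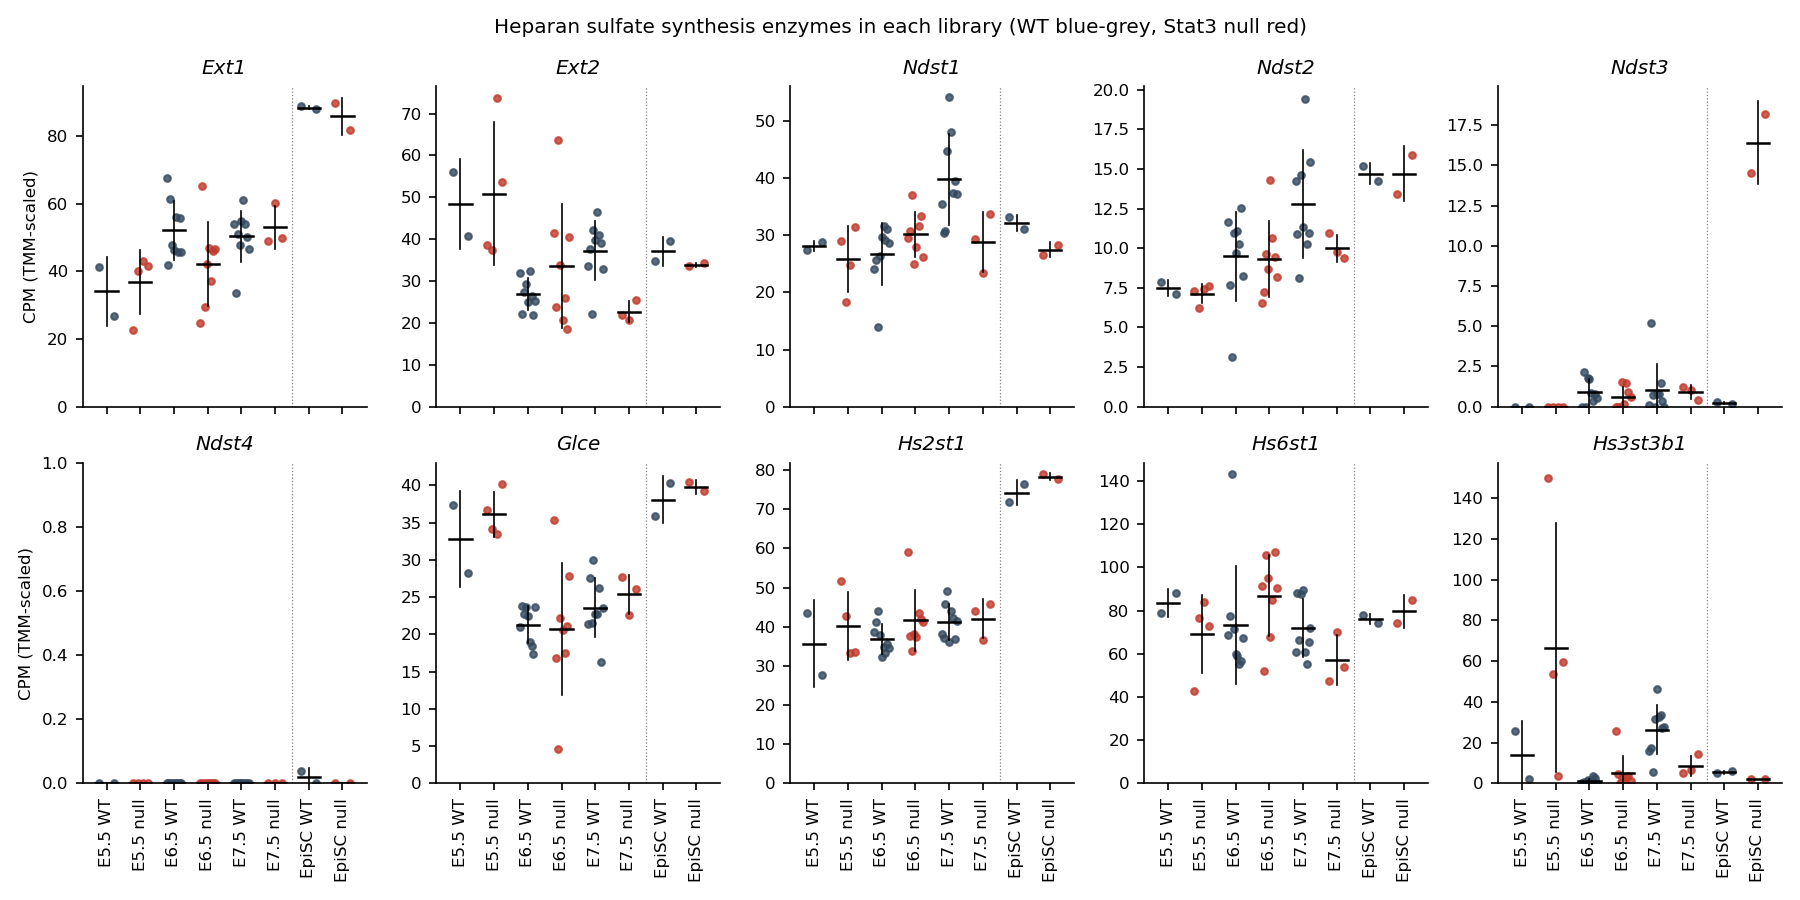
Level of each of the 10 enzymes in every library in CPM on a linear axis from 0, 1 panel a gene, with WT libraries in blue-grey and *Stat3* null in red. Horizontal lines are group means and vertical lines 1 SD to each side, ended at 0, and the dotted line parts the EpiSC libraries, which were made with another kit. *Ndst3* is at 5.22 CPM or less everywhere but in null EpiSCs, and *Hs3st3b1* lies above 15 CPM in 3 of 4 E5.5 null, 1 of 2 E5.5 WT, 1 of 8 E6.5 null and 8 of 9 E7.5 WT libraries.

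A gene was called where edgeR's quasi-likelihood test gave a Benjamini-Hochberg adjusted p under 0.05 over all genes tested and an absolute log2 fold change over 1, and the share of all tested genes that was called is given beside each count. Of the 10 enzymes 8 were tested at E5.5 and 9 elsewhere, since *Ndst4* passed the filter on low counts nowhere and *Ndst3* not between the E5.5 genotypes. No enzyme was called between null and WT at E5.5 (0 of 8, background 0% of 18690 genes) or at E6.5 (0 of 9, background 0% of 17095 genes). With no gene called there, an unadjusted p under 0.05 was reached by 467 genes of the E5.5 fit and 1414 of the E6.5 fit, and DESeq2 called 14 and 18 genes and voom with sample weights 0 and 92, none of them an enzyme of this set. At E7.5 none of 9 was called (background 1.17% of 19680 genes), and in EpiSCs 1 of 9, *Ndst3* (background 0.106% of 20736 genes). Between stages the counts were 0 of 9 for WT E6.5 against E5.5 (background 5.15%), 1 of 9 for WT E7.5 against E6.5, which was *Hs3st3b1* (background 8.83%), 0 of 9 for null E6.5 against E5.5 (background 1.98%) and 0 of 9 for null E7.5 against E6.5 (background 0.103%). The interaction of genotype and stage between E6.5 and E7.5 called 0 of 9 (background 0.443% of 22122 genes). E7.5 null epiblasts were also set against E6.5 WT, the WT stage before, and again 0 of 9 were called (background 0.162%). With edgeR, an unadjusted p under 0.05 was met between the genotypes by 0 of 8 enzymes at E5.5 (2.5% of all genes), 1 of 9 at E6.5 (8.27%), 3 of 9 at E7.5 (19.7%) and 3 of 9 in EpiSCs (9.09%). Between stages it was met by 5 of 9 in WT (23%) and 3 of 9 in null epiblasts (18.3%) from E5.5 to E6.5, and by 4 of 9 in WT (36.1%) and 1 of 9 in null epiblasts (8.13%) from E6.5 to E7.5. For E7.5 null against E6.5 WT it was 1 of 9 (8.87%) and for the interaction 4 of 9 (14.1%). Comparisons that use the same group share its libraries. The median log2 fold change of the tested enzymes lay between -0.34 for the interaction and 0.22 for WT E7.5 against E6.5, where that of all genes was -0.01 and 0.01.

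**Figure D2:**
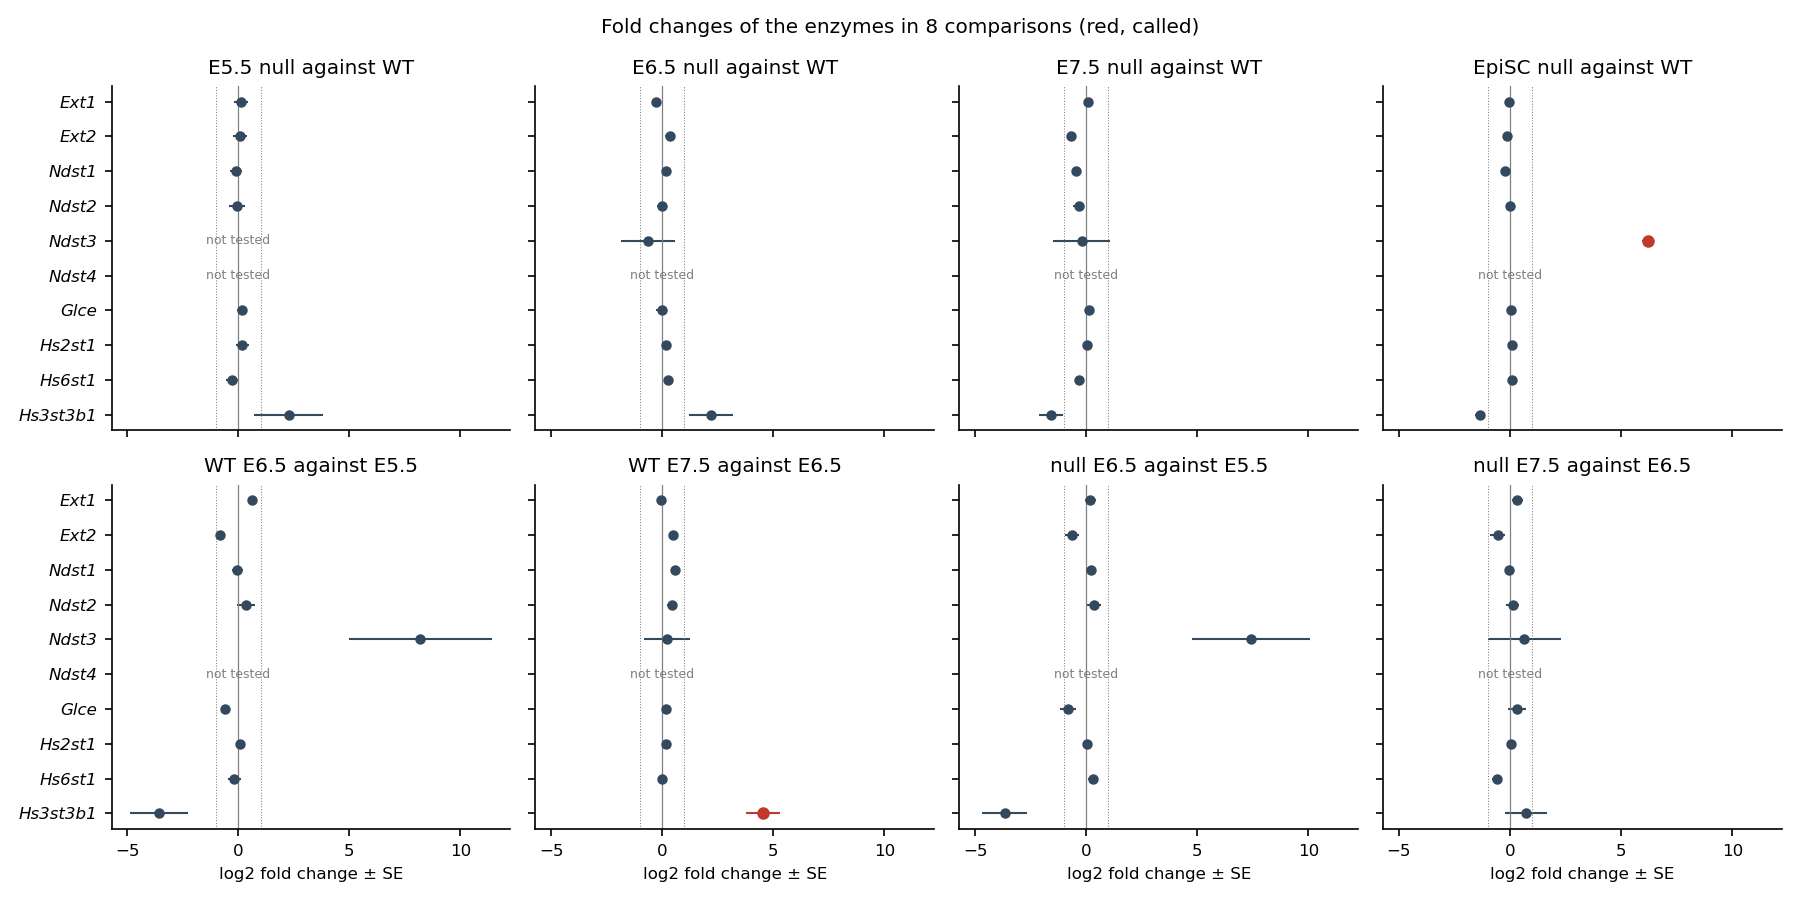
Log2 fold change of each enzyme in 8 comparisons, with bars of 1 standard error and dotted lines at an absolute log2 fold change of 1. Points in red were called (*Ndst3* in EpiSCs, *Hs3st3b1* in WT between E6.5 and E7.5), and *Hs3st3b1* and *Ndst3* have the longest bars. The other 7 enzymes drawn lie between -0.83 and 0.63.

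*Ext1* and *Ext2* encode the 2 subunits of the chain polymerase (*Ext1*, ENSMUSG00000061731.9, chr15:53064038-53346159, and *Ext2*, ENSMUSG00000027198.16, chr2:93661028-93822568, both minus strand of GRCm38 and protein coding). *Ext1* had 41.37 and 26.8 CPM in the 2 E5.5 WT epiblasts and 22.8, 39.98, 42.97 and 41.53 CPM in the 4 null. In E6.5 WT it ranged from 41.9 to 67.5 CPM with a median of 47.8, and in E6.5 null from 24.8 to 65.2 with a median of 44.1. Every E6.5 WT epiblast thus lay above both E5.5 WT epiblasts, although the gap between 41.37 and 41.86 CPM is small. The log2 fold change of WT E6.5 over E5.5 was 0.63 ± 0.20 (SE, n = 9 and 2). At E7.5 *Ext1* had 49.04, 60.24 and 49.79 CPM in null and 33.7 to 61.0 CPM, median 51.0, in WT epiblasts, so null values lay within the WT range, with a log2 fold change of 0.09 ± 0.14 (SE).

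*Ext2* took another course. It had 56.11 and 40.78 CPM in E5.5 WT epiblasts, 21.8 to 32.4 CPM (median 26.4) at E6.5 and 22.1 to 46.6 CPM (median 39.1) at E7.5. Both E5.5 WT libraries lay above all 9 of E6.5, a log2 fold change of -0.83 ± 0.18 (SE), or -1.08 ± 0.22 and past the criteria of a call without E5.5 WT 2, and from E6.5 to E7.5 the WT level was higher by 0.48 ± 0.12 on the log2 scale. Groups that do not overlap were found for 3 of the 10 enzymes between WT E5.5 and E6.5, *Ext1*, *Ext2* and *Glce*, and for 16.9% of all genes tested. E5.5 null epiblasts had 38.64, 37.36, 73.82 and 53.63 CPM, and E6.5 null 18.6 to 63.7 CPM with a median of 29.9. The highest of these, E6.5 null 3, also had 3494 CPM over the 11 visceral endoderm markers, the most of its stage. E6.5 WT 3, with 3000 CPM over these markers, had *Ext2* at 27.34 CPM, and E6.5 null 1, with 98.63 CPM, had it at 41.56 CPM. That list summed to 4188 to 8489 CPM in 5 of the 6 E5.5 epiblasts, with all 11 markers detected, and to 27.32 CPM in E5.5 null 1, where 7 of the 11 were at 0 and *Ext2* was at 38.64 CPM. The part of visceral endoderm in the level of *Ext2* was not tested.

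At E7.5 *Ext2* was lower in null epiblasts, at 21.82, 20.81 and 25.56 CPM, than in 8 of the 9 WT epiblasts, which ranged from 32.89 to 46.58 CPM. The remaining one, E7.5 WT 3, had 22.06 CPM and lay among the null values. The log2 fold change was -0.69 ± 0.18 (SE, n = 3 and 9), below the size a call asks for, and -0.76 ± 0.13 without E7.5 WT 3. Against E6.5 WT the E7.5 null level differed by -0.23 ± 0.15, and the genotype effect differed between E7.5 and E6.5 by -1.05 ± 0.32. Visceral endoderm markers summed to 27.69 to 166.3 CPM in E7.5 null, to 162.9 CPM in E7.5 WT 3 and to 366.2 to 2231 CPM in the other 8 WT epiblasts, and their part in this difference was not tested. The locus of *Ext2* overlaps *Alx4* on the other strand, without a shared exon base, and *Alx4* had 0 CPM in all E7.5 null and 0.695 to 5.53 CPM in WT epiblasts. Whether counting used the strand is not given in the sources used here.

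The NDST enzymes make the first and most widespread modification of the chain, and of the 4 genes *Ndst1* and *Ndst2* carried nearly all of the signal in epiblasts (*Ndst1*, ENSMUSG00000054008.8, chr18:60684494-60748650, and *Ndst2*, ENSMUSG00000039308.5, chr14:20723730-20734562, both minus strand). Per kilobase of exon *Ndst1* made up 60% to 67.4% of the summed NDST level in the 6 epiblast groups as a mean, and *Ndst2* 32.6% to 38.4%. *Ndst1* lay above *Ndst2* on this scale in every epiblast library, at 51.6% to 71.7% against 27.4% to 48.2%. Their log2 levels moved together over the 35 libraries with Pearson's r of 0.715, a description across libraries that share stage and genotype, and the highest r of the 36 pairs among the 9 detected enzymes.

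*Ndst1* had 27.51 and 28.77 CPM in E5.5 WT, 13.9 to 31.6 CPM (median 28.7) in E6.5 WT and 30.4 to 54.1 CPM (median 37.5) in E7.5 WT epiblasts. Its lowest value, 13.9 CPM, was that of E6.5 WT 3, and the next was 24.11. Null epiblasts held 18.4 to 31.5 CPM at E5.5, 24.9 to 37.0 at E6.5 and 29.42, 23.34 and 33.81 at E7.5. The WT level at E7.5 was above that at E6.5 by 0.58 ± 0.14 on the log2 scale (SE, 0.50 ± 0.11 without E6.5 WT 3), while in null epiblasts the difference was -0.06 ± 0.18. Between genotypes at E7.5 it was -0.44 ± 0.17, and the groups overlapped because WT 2 and WT 3, at 30.41 and 30.73 CPM, lay below null 3.

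*Ndst2* was lower and followed a similar course in WT, with 7.861 and 7.112 CPM at E5.5, 3.16 to 12.5 CPM (median 10.3) at E6.5 and 8.11 to 19.4 CPM (median 11.4) at E7.5. The differences between WT stages were 0.36 ± 0.41 and 0.45 ± 0.22 on the log2 scale. E7.5 null epiblasts had 10.97, 9.749 and 9.358 CPM, all within the WT range, and a log2 fold change of -0.34 ± 0.24. No pair of genotypes was parted for *Ndst1* or *Ndst2* at any stage of the embryo.

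*Ndst3* (ENSMUSG00000027977.15, chr3:123526166-123690853, minus strand), an NDST with a restricted pattern in the adult that is best known from brain, had no counts in any of the 6 E5.5 epiblasts. At E6.5 it had 0, 2.14, 0, 1.81, 1.73, 0.843, 0.336, 0.762 and 0.536 CPM in WT 1 to 9 and 0, 0, 0, 1.52, 0.159, 1.48, 0.907 and 0.576 CPM in null 1 to 8. Of the libraries over 40000000 counts, 2 of 3 WT and 3 of 3 null were at 0, and of those with fewer counts none of 6 and none of 5, so at this stage a value of 0 went with the deeper libraries. Within the shallower libraries the means were 1 ± 0.621 CPM (SD, n = 6) in WT and 0.928 ± 0.585 (SD, n = 5) in null. At E5.5, 0 counts allow up to 0.111 CPM by counting error alone, as the mean of the 2 WT libraries. On that bound the mean of E6.5 WT was 8.16-fold higher or more, and that of E6.5 null 5.96-fold or more above E5.5 null. The groups overlapped in both genotypes, since E6.5 libraries were at 0 as well. These folds thus cover counting error only and are no lower bounds for the spread between epiblasts. E7.5 null epiblasts had 1.25, 1.02 and 0.432 CPM, and E7.5 WT 0 to 5.22 CPM with a median of 0.721 and 2 of 9 at 0. The value of 5.22 CPM was that of E7.5 WT 2, with the next at 1.45.

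In EpiSCs *Ndst3* had 14.5 CPM in null line 2 and 18.2 in null line 6, against 0.173 CPM in WT line 8 and 0.265 in WT line 13. The groups were far apart, with a log2 fold change of 6.2 ± 0.27 (SE, n = 2 and 2), the one call of the set here. With each of the 4 lines left out in turn the value lay between 5.95 and 6.54. Each line is a single derivation, so genotype and line cannot be told apart beyond these 2 against 2. Per kilobase of exon *Ndst3* made up 19.3% and 21.0% of the summed NDST level in null lines and 0.253% and 0.363% in WT lines. The shares of *Ndst1* and *Ndst2* were 40.6% ± 2.12 and 39.3% ± 0.849 (SD, n = 2) in null lines against 54.3% ± 0.0707 and 45.3% in WT lines. *Ndst2* itself was at 13.42 and 15.89 CPM in null and 14.24 and 15.19 CPM in WT lines, a log2 fold change of -0.01 ± 0.13, and *Ndst1* at 26.58 and 28.38 against 31.17 and 33.21 CPM, a log2 fold change of -0.23 ± 0.09. *Ndst1*, *Ndst3*, *Ext2*, *Hs2st1* and *Hs3st3b1* did not overlap between the genotypes in EpiSCs, as was true of 39.5% of all genes tested.

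**Figure D3:**
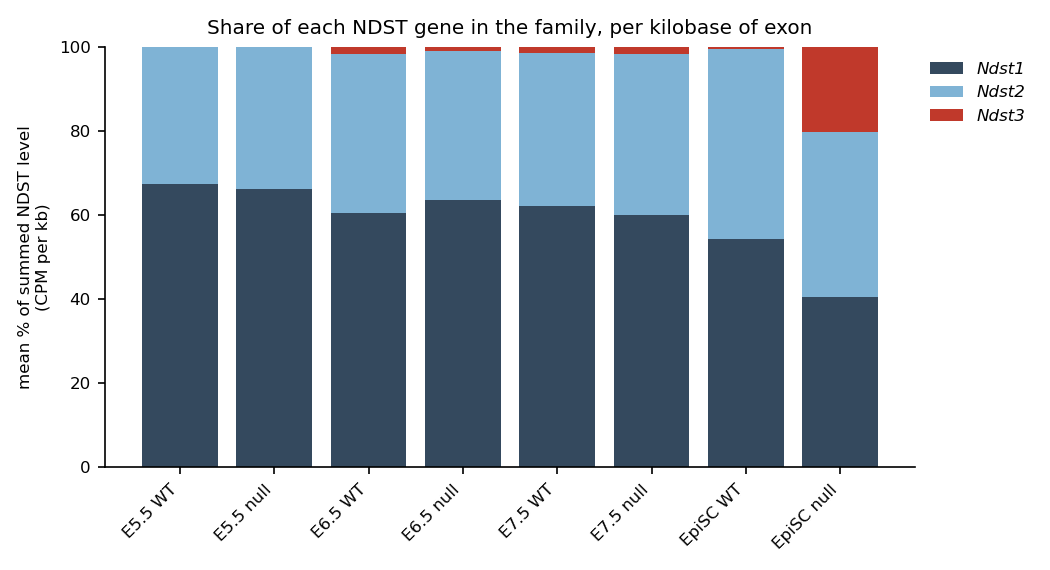
Stacked bars of the mean share of each NDST gene in their summed level, in percent of CPM per kilobase of exon, for the 8 groups. *Ndst4* is too low to be drawn. *Ndst3* makes up 0% at E5.5, 1.04% to 1.62% in the later epiblast groups and 20.1% ± 1.2 (SD, n = 2) in null EpiSCs.

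The surroundings of *Ndst3* were looked at after its values had been seen. Within 2 Mb of its start 31 other genes were tested in EpiSCs, with a median log2 fold change of 0.04 and none with an adjusted p under 0.05. The one large value among them was that of *Gm42510*, an unconfirmed transcript on the same strand inside the *Ndst3* locus with no exon base in common. It had 0.925 and 0.937 CPM in null and 0 and 0.0203 CPM in WT lines, a log2 fold change of 6.5 ± 0.85 (edgeR, adjusted p = 0.0739). The nearest protein-coding genes on either side, *Tram1l1* and *Prss12*, differed by -0.03 ± 0.34 and -0.02 ± 0.26. Of the 50-base words in *Ndst3* transcripts 0.0703% also occur in another gene, *Ndst4*, which had 0.0389 CPM at most in EpiSCs.

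**Figure D4:**
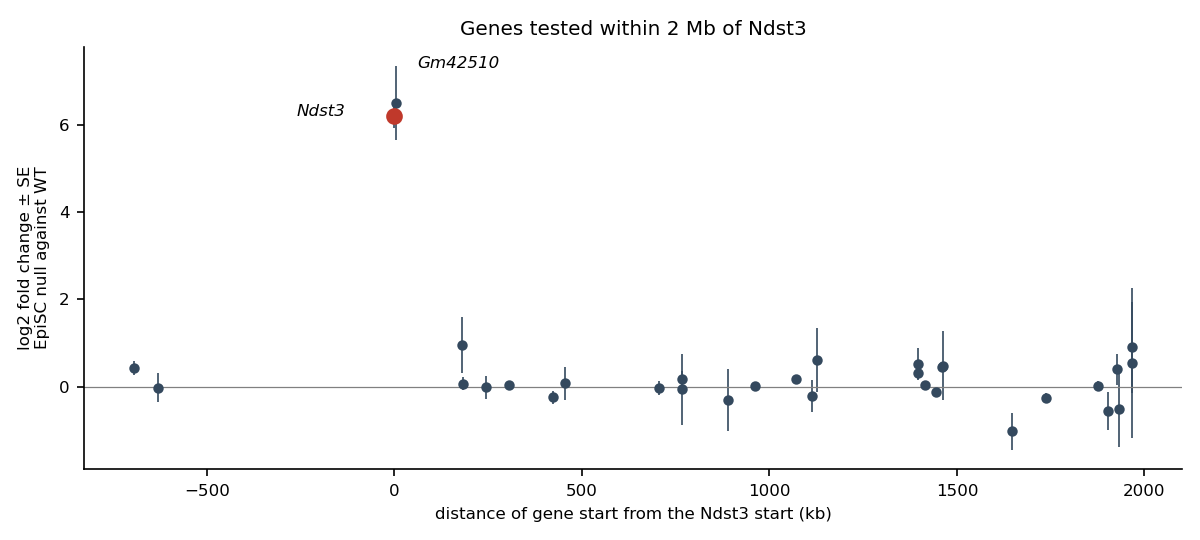
Log2 fold change with 1 standard error between null and WT EpiSCs for the genes tested within 2 Mb of *Ndst3*, by the distance of their start from the *Ndst3* start along the chromosome in kilobases. *Ndst3* in red and *Gm42510* at 2.88 kb lie above 6, and the other 30 genes lie between -1.03 and 0.95.

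*Ndst4* (ENSMUSG00000027971.16, chr3:125404076-125728899, plus strand) had 0 counts in all 35 epiblast libraries and in 3 of the 4 EpiSC libraries, and 5 counts, or 0.0389 CPM, in WT line 13. It was not tested in any comparison.

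*Glce* (ENSMUSG00000032252.14, chr9:62057248-62122655, minus strand), the only gene for the epimerase, was called in no comparison. E5.5 WT epiblasts had 37.36 and 28.2 CPM and E5.5 null 36.7, 34.18, 33.41 and 40.2. E6.5 WT had 17.4 to 23.8 CPM (median 22.4) and E7.5 WT 16.4 to 30.0 CPM (median 22.7), so both E5.5 WT epiblasts lay above every E6.5 WT epiblast. The log2 fold change of E6.5 over E5.5 was -0.60 ± 0.18 in WT and -0.82 ± 0.35 in null epiblasts. E6.5 null ranged most widely, from 4.57 CPM in null 3 to 35.3 CPM in null 1, with a median of 20.8. Genotypes differed by 0.15 ± 0.21, -0.03 ± 0.25 and 0.13 ± 0.16 at the 3 stages and by 0.06 ± 0.10 in EpiSCs.

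*Hs2st1* (ENSMUSG00000040151.9, chr3:144429706-144570181, minus strand), the single 2-O-sulfotransferase of heparan sulfate, was the steadiest of the set. Group means in epiblasts lay between 35.7 CPM (E5.5 WT, SD 11.2, n = 2) and 42.1 CPM (E7.5 null, SD 4.97, n = 3). The highest single value was 59.1 CPM in E6.5 null 1, where the other 7 null epiblasts held 33.9 to 43.6 CPM. Log2 fold changes between genotypes were 0.19 ± 0.29, 0.18 ± 0.11 and 0.05 ± 0.12 at the 3 stages and 0.07 ± 0.07 in EpiSCs, where null lines had 78.9 and 77.7 and WT lines 71.96 and 76.5 CPM.

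*Hs6st1* (ENSMUSG00000045216.7, chr1:36068400-36106446, plus strand), the main 6-O-sulfotransferase of many tissues, had the highest level per kilobase. Its CPM were 78.8 and 88.26 in E5.5 WT, 55.2 to 143 (median 67.5) in E6.5 WT and 55.1 to 89.7 (median 66.6) in E7.5 WT epiblasts. E6.5 WT 3 had the 143 CPM and the other 8 had 77.5 CPM or less. Null epiblasts held 42.61, 76.53, 83.77 and 72.95 CPM at E5.5, 51.9 to 107 CPM (median 91.1) at E6.5 and 47.45, 70.2 and 53.75 CPM at E7.5. Among E6.5 libraries under 40000000 counts the means were 89.0 ± 14.4 CPM (SD, n = 5) in null and 61.6 ± 6.41 (SD, n = 6) in WT. Among the deeper ones they were 83.1 ± 28.0 (SD, n = 3) and 96.5 ± 40.8 (SD, n = 3). The higher WT mean there rested on E6.5 WT 3, since WT 1 and WT 2 had 68.74 and 77.51 CPM, below the null mean. Over all libraries the log2 fold change was 0.25 ± 0.18 at E6.5 and -0.31 ± 0.16 at E7.5, and null epiblasts differed between E7.5 and E6.5 by -0.60 ± 0.21. The antisense gene *Gm37335*, which shares 447 exon bases with *Hs6st1*, was at 0 in every library.

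*Hs3st3b1* (ENSMUSG00000070407.5, chr11:63885792-63922290, minus strand) encodes a 3-O-sulfotransferase, which makes the rarest modification of the chain, and was the most variable enzyme. E5.5 null epiblasts had 149.9, 53.74, 3.517 and 59.75 CPM and E5.5 WT 25.84 and 2.207 CPM. The groups overlapped, and the log2 fold change was 2.26 ± 1.53 (SE, n = 4 and 2). It was 1.48 ± 1.43 without null 1, 1.38 ± 1.82 without WT 2 and 4.94 ± 2.34 without WT 1, so single libraries decided its size. E6.5 WT epiblasts held 0 to 3.42 CPM with a median of 0.659. E6.5 null 1 held 25.5 CPM and the other 7 null epiblasts 0.434 to 4.55 CPM. The log2 fold change at E6.5 was 2.2 ± 0.98 and 1.04 ± 0.94 without E6.5 null 1. Within the E6.5 libraries under 40000000 counts the means were 2.31 ± 1.08 CPM (SD, n = 5) in null and 1.62 ± 1.24 (SD, n = 6) in WT, and within the deeper ones 10.2 ± 13.4 (SD, n = 3) and 0.219 ± 0.379 (SD, n = 3).

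From E5.5 to E6.5 the log2 fold change was -3.58 ± 1.31 in WT and -3.67 ± 1.0 in null epiblasts, and neither was called. The WT value rested on E5.5 WT 1, without which it was -0.95 ± 2.01. The null value was -4.84 ± 0.79 without E6.5 null 1, which met both criteria of a call. Over 22 alternative settings it lay between -4.88 and -2.89 and was called in 7. The highest E5.5 null value, 149.9 CPM, was that of null 1, whose markers go against its label.

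In WT epiblasts *Hs3st3b1* rose from E6.5 to E7.5. The 9 E7.5 WT epiblasts had 15.69, 17.61, 5.534, 31.63, 46.14, 32.69, 33.66, 27.34 and 27.51 CPM, and each of them lay above the highest of the 9 at E6.5, 3.42 CPM. The log2 fold change was 4.55 ± 0.77 (SE), the second call of the set, and 2.4% of all genes tested had groups that did not overlap in this comparison. E7.5 null epiblasts had 5.311, 6.499 and 14.25 CPM. They too lay above every E6.5 WT epiblast, by 2.92 ± 1.08 on the log2 scale, and groups that did not overlap were found there for 4.4% of all genes tested. Set against E6.5 null the difference was 0.73 ± 0.95. E6.5 null 1, at 25.48 CPM, lay above all E7.5 null epiblasts, while the other E6.5 null epiblasts, at 0.434 to 4.555 CPM, lay below all of them. Between the genotypes at E7.5 the log2 fold change was -1.58 ± 0.53 (n = 3 and 9). The null values lay below 8 of the 9 WT epiblasts, and WT 3, at 5.534 CPM, fell among them. Without E7.5 WT 3 the value was -1.72 ± 0.36, which met the size and the adjusted p of a call, and with each of the other 11 libraries left out in turn it lay between -2.14 and -1.32 and was not called. The interaction of genotype and stage was -3.83 ± 1.45. E6.5 null 1 entered this value too, which lay between -4.39 and -2.33 over 13 alternative settings.

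The level of *Hs3st3b1* was high where the summed level of 8 extraembryonic ectoderm markers was high in the younger epiblasts, including E6.5 null 1. At E5.5 that sum was 1109, 394.8, 50.23 and 352.6 CPM in null 1 to 4 and 394.2 and 38.44 CPM in WT 1 and 2, and the libraries with the lowest sums in each group, null 3 and WT 2, were those with the lowest *Hs3st3b1*. *Elf5*, a defining factor of that tissue, was at 277 CPM in E5.5 null 1 and at 12.1 CPM in null 3. At E7.5 the sum was 63.12 to 271.1 CPM in 8 WT epiblasts, 7.053 CPM in WT 3 and 8.028, 12.84 and 33.93 CPM in null epiblasts. There *Elf5* was at 0 in 7 of 9 WT epiblasts and at 0.466 CPM or less in the other 2, and the sum was made up mostly of *Cdx2*, at 0.669 to 92.5 CPM, and *Hand1*, which are also expressed in posterior and mesodermal cells of the embryo. Between 4 and 6 of the 8 markers had over 3 counts in every library of E5.5 null, E7.5 null and E7.5 WT. The part of these tissues in the level of *Hs3st3b1* was not tested.

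**Figure D5:**
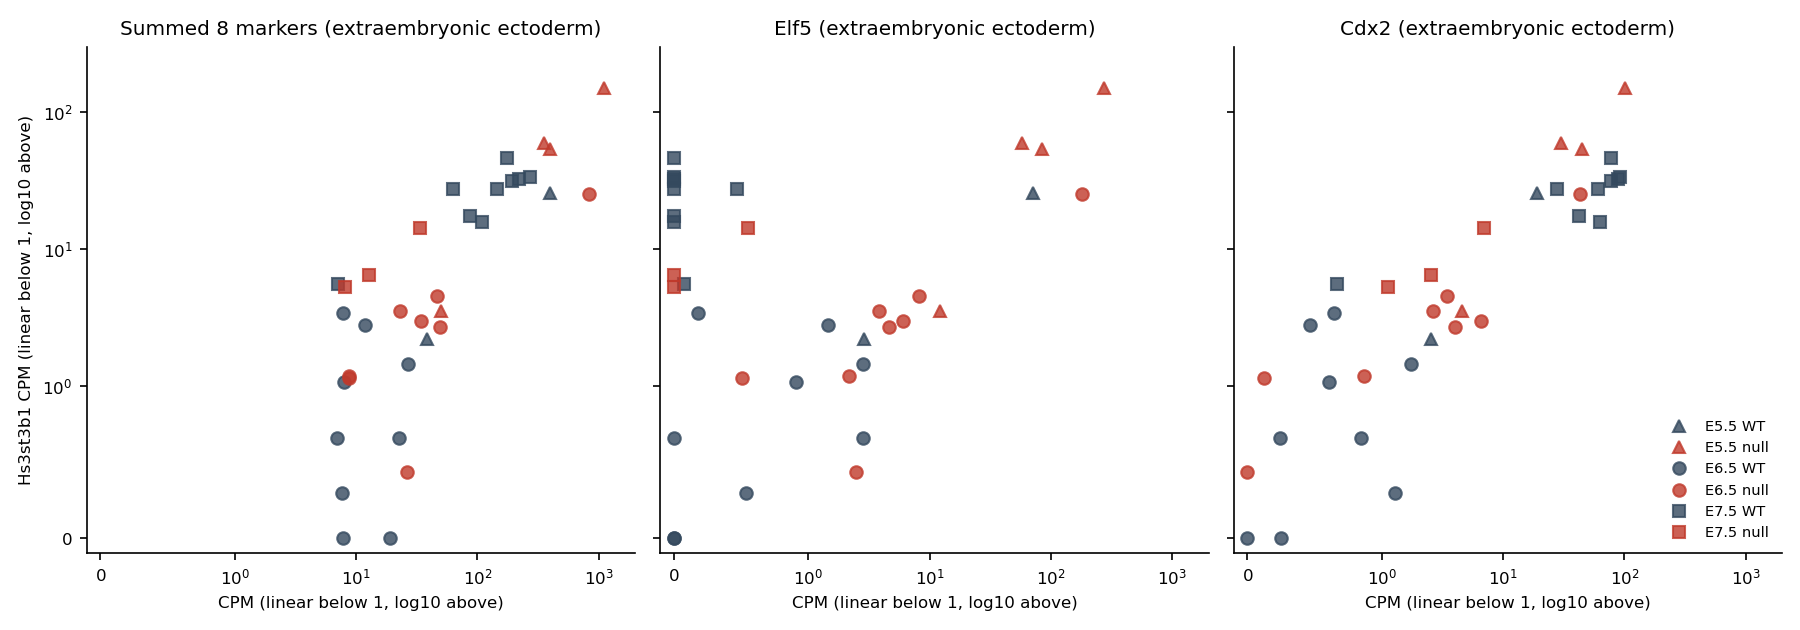
CPM of *Hs3st3b1* in each of the 35 epiblast libraries against the summed CPM of 8 extraembryonic ectoderm markers and against *Elf5* and *Cdx2* alone, with axes linear below 1 and logarithmic above. The E5.5 and E6.5 libraries with high *Hs3st3b1* are also high in *Elf5*, while the E7.5 WT libraries have *Elf5* at or near 0 and 8 of 9 have *Cdx2* at 27.9 CPM or more.

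In EpiSCs *Hs3st3b1* was at 2.155 and 2.177 CPM in null lines and 5.988 and 4.969 CPM in WT lines 8 and 13, a log2 fold change of -1.34 ± 0.22 (SE, n = 2 and 2) that was not called with edgeR. Both null lines lay below both WT lines. The extraembryonic ectoderm markers summed to 3.795 and 4.604 CPM in null and 4.199 and 4.642 CPM in WT lines. Of the 50-base words of *Hs3st3b1* transcripts 8.56% also occur in *Hs3st3a1*, a gene on the same chromosome for a closely related enzyme, so a part of the reads of either gene could be assigned to the other. *Hs3st3a1* had lower levels in each group, with means of 7.98 ± 5.5 CPM (SD, n = 4) in E5.5 null, 3.01 ± 1.91 (SD, n = 9) in E7.5 WT and 0.694 ± 0.418 (SD, n = 3) in E7.5 null.

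The genes whose log2 level followed *Hs3st3b1* most closely over the 35 libraries were *Irx3* (Pearson's r = 0.939), *Fgfr2* (0.930), which encodes an FGF receptor, and *Cald1* (0.923). For *Ndst3* they were *Fam192a* (0.688), *Ndufs4* (0.683) and *Gpr45* (0.682). These values describe libraries that share stage and genotype and are not tests.

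The other genes of the pathway were counted from a list of 42, drawn up by their roles: 7 for the linker and its control, 3 for elongation, 8 further sulfotransferases, 4 that remove sulfate or cut the chain, 7 that supply sugars and sulfate, and 13 core proteins. Between null and WT none of them was called at E5.5 (38 tested), at E6.5 (36) or in EpiSCs (39), and 2 of 39 were lower in null epiblasts at E7.5, both core proteins, where 1.17% of all genes were called. *Gpc3*, a glypican, had 180 ± 37.1 CPM (SD, n = 3) in null and 460 ± 126 (SD, n = 9) in WT, a log2 fold change of -1.34 ± 0.29 (adjusted p = 0.0419, edgeR), and *Sdc4*, a syndecan, 7.82 ± 0.800 and 18.0 ± 5.47 CPM, a log2 fold change of -1.18 ± 0.27 (adjusted p = 0.0417, edgeR). Both calls were lost when any 1 library other than E7.5 WT 3 was left out, and 4 genes were called without that one. The list had a median log2 fold change of -0.27 at E7.5, against -0.02 for all genes. In the same comparison 3 of 11 visceral endoderm, 1 of 8 streak and mesoderm and 1 of 5 neuroectoderm markers were lower and none was higher, with medians of -3.35, -0.26 and -2.74, while none of 7 epiblast markers (median 1.37), of 6 tested extraembryonic ectoderm markers (-2.11) or of 2 tested blood markers (1.67) was called. Their part in the levels of *Gpc3* and *Sdc4* was not tested.

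Between WT stages, 3 of 39 genes of the list rose from E5.5 to E6.5 and 3 fell, where 5.15% of all genes were called. *Gpc1*, a glypican, went from 29.7 ± 4.50 CPM (SD, n = 2) to 89.6 ± 10.5 (SD, n = 9), a log2 fold change of 1.61 ± 0.17 (adjusted p = 0.000484, edgeR). *Hs6st2*, the second 6-O-sulfotransferase, rose from 5.90 ± 0.970 to 17.6 ± 3.63 CPM (1.60 ± 0.30), and the syndecan *Sdc2* from 6.36 ± 1.61 to 14.2 ± 1.67 CPM (1.18 ± 0.26). *Sdc4* fell from 73.5 ± 79.5 to 9.82 ± 3.82 CPM (-2.89 ± 0.48), the sulfate transporter *Slc26a2* from 73.9 ± 2.95 to 27.5 ± 7.67 CPM (-1.41 ± 0.22) and *Ugp2*, which makes UDP-glucose, from 25.4 ± 12.9 to 8.68 ± 4.04 CPM (-1.53 ± 0.41). The count of 6 was 1 without E5.5 WT 1 and 12 without E6.5 WT 3. In null epiblasts over the same interval 2 of 37 rose (1.98% of all genes were called), *Gpc1* from 37.4 ± 10.2 to 77.6 ± 11.2 CPM (1.03 ± 0.18) and *Sdc1* from 22.3 ± 5.01 to 56.9 ± 18.5 CPM (1.33 ± 0.27), and none fell. It was 4 without E6.5 null 3 and 1 without any of E5.5 null 2, 3 or 4 or E6.5 null 7. Of the 11 visceral endoderm markers none was called between WT E5.5 and E6.5, with a median log2 fold change of -2.51, and 3 of 8 extraembryonic ectoderm markers fell, with a median of -3.65. Their part in these changes was not tested.

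From E6.5 to E7.5 in WT, 3 of 36 genes of the list rose and none fell, a share near the 8.83% of all genes called. They were *Pxylp1*, which controls the linker by removing its phosphate, from 3.15 ± 0.828 to 7.69 ± 3.18 CPM (log2 fold change 1.30 ± 0.26, adjusted p = 0.000867, edgeR), the syndecan *Sdc3*, from 5.15 ± 2.27 to 10.3 ± 4.06 CPM (1.02 ± 0.29), and *Gpc3*, from 215 ± 197 to 460 ± 126 CPM (1.11 ± 0.37). The count of 3 was 1 without WT 4, 5 or 7 of E7.5 and 5 without E7.5 WT 3. In the same comparison 3 of 11 visceral endoderm, 3 of 5 tested extraembryonic ectoderm, 2 of 7 tested streak and mesoderm and 4 of 5 neuroectoderm markers rose, 5 of 7 epiblast markers fell and the 1 tested blood marker was not called, with medians of 0.93, 3.93, 1.41, 2.64, -1.41 and 1.87. Their part in these changes was not tested. In null epiblasts none of 37 was called over this interval, nor in E7.5 null against E6.5 WT (39 tested) or in the interaction (39 tested). For the related chondroitin sulfate, 1 of 14 tested enzymes rose in WT from E6.5 to E7.5, the sulfotransferase *Chst7* (2.60 ± 0.78, adjusted p = 0.0198, edgeR), beside 8.83% of all genes, and no other comparison called one.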

How the data were processed

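RNA-seq was made from 35 single epiblasts and 4 EpiSC lines. The authors trimmed reads with Trim Galore, aligned them with HISAT2 to GRCm38 (mm10) and derived gene counts with StringTie, and the deposited tables hold these raw counts for 47643 genes. The annotation version and strand setting are not given in the sources used here. Epiblast libraries were prepared with the SMARTer Stranded Total RNA-Seq Pico kit and EpiSC libraries with Ribo-Zero and NEBNext Ultra II. *Gm26917* took 7.18% to 11.5% of epiblast counts and 12.1% to 14.0% of EpiSC counts.

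Groups were taken from the labels of the samples. Each comparison was fitted to the libraries of its groups alone with edgeR 4.0.16 (R 4.3.3, TMM scaling, robust quasi-likelihood, filterByExpr with a minimum count of 10 and a minimum total of 15), and Benjamini-Hochberg adjustment ran over all genes tested. Standard errors were the absolute log2 fold change over the square root of F. The test was checked on simulated counts with known large changes, for the E7.5 and EpiSC genotype comparisons alone. Changed genes there were not near 0 and their spread was capped. The check thus does not cover the E5.5 comparisons or enzymes near 0 or with a wide spread. Epiblasts of a group are separate embryos and EpiSC libraries separate lines. Replicate numbers did not pair the libraries (correlations of deviations from -0.173 to 0.284). Alternatives used DESeq2 1.42.0, limma 3.58.1 (voom with sample weights), other size factors, other filters, all 35 libraries in 1 fit, a depth term, a replicate block and libraries left out.

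The 10 enzymes and all gene lists were chosen with earlier results of these data known. The text names all 10 enzymes, *Stat3* and *Pou5f1* as checks, of each other list up to 3 called genes in each direction with the smallest p, and, for the 2 enzymes with the widest range of group means, the 3 genes with the highest Pearson's r of log2 CPM over the 35 libraries among genes with a mean of at least 1 CPM. Marker lists covered epiblast, visceral endoderm, extraembryonic ectoderm, streak and mesoderm, neuroectoderm and blood. Exon lengths came from GENCODE vM21. Plots used Python 3.11.15 and matplotlib 3.10.9.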

Additional observations from a re-analysis of the deposited data

Results flagged for a closer look

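Of 35 pairs of an enzyme and a group of 4 to 10 libraries, 6 (17.1%) held a library whose gap to its nearest neighbour passed Dixon's 95% critical value, which chance passes in about 1 of 20 groups. Pairs share libraries and are not independent. In E6.5 WT 3, *Ndst1* was the lowest of 9 at 13.9 CPM, with the nearest at 24.11 CPM, and *Hs6st1* the highest at 143.4 CPM, with the nearest at 77.51 CPM. In E6.5 null 1, *Hs2st1* was the highest of 8 at 59.09 CPM against 43.58 CPM, and *Hs3st3b1* the highest at 25.48 CPM against 4.555 CPM. *Ext1* was the lowest of 4 at 22.8 CPM in E5.5 null 1, where the nearest had 39.98 CPM. *Ndst3* was the highest of 9 at 5.217 CPM in E7.5 WT 2, where the nearest had 1.449 CPM.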

How the results depend on the processing

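Log2 fold changes of enzymes were followed over the alternatives only where called or over 1 in size, and for some smaller ones of *Ext2* and *Ndst1*. None of those changed sign (326 stayed called or uncalled as they were, whatever their size, and 23 of *Hs3st3b1*, *Ndst3* and *Ext2* were newly called). The small values of the other enzymes, where a change of sign is likelier, were not followed. Of 382 counts of calls, 69 moved by over 1.5 times. The causes were not tested. The call of *Ndst3* in EpiSCs (log2 fold change 5.95 to 6.54 over 10 settings) and that of *Hs3st3b1* in WT E7.5 against E6.5 (4.02 to 5.28 over 28) held in each. Uncalled values of *Hs3st3b1* fell below a size of 1 in places, to 0.87 at E6.5 without the 4 libraries that stand apart, to -0.60 at E7.5 with the replicate block and to -0.95 for WT E6.5 against E5.5 without E5.5 WT 1. Between null and WT at E5.5 and E6.5 0 enzymes were called in every setting run.

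For enzymes called at E7.5 in null against WT, the count of 0 became 1, *Hs3st3b1*, with DESeq2, with voom and without the 4 libraries that stand apart, and ranged from 0 to 1 with single libraries left out. In EpiSCs the count of 1 became 2 with DESeq2 and with no filter on low counts, through *Hs3st3b1*. For WT E6.5 against E5.5 it went from 0 to 1 with DESeq2 and with all 35 libraries in 1 fit, and from 0 to 1 with single libraries left out. For null E6.5 against E5.5 it went from 0 to 1 with DESeq2, voom, a mean count of at least 50 and without the 4 libraries, to 2 with all 35 libraries or a depth term, and from 0 to 1 with single libraries left out. For E7.5 null against E6.5 WT it was 1 with voom, and for the interaction 1 with DESeq2, voom, a depth term and without the 4 libraries.

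For the other pathway genes at E7.5 in null against WT, the count of 2 became 1 with no filter, 0 with all 35 libraries, 4 without the 4 libraries, and 0 to 4 with single libraries left out. For WT E6.5 against E5.5 the 6 became 13 with DESeq2, 12 with voom and without the 4 libraries, 10 with a depth term, and 1 to 12 with single libraries left out. For WT E7.5 against E6.5 the 3 became 7 with voom and without the 4 libraries, 1 with all 35, and 1 to 5 with single libraries left out. For null E6.5 against E5.5 the 2 became 5 with DESeq2, 9 with voom, 8 with all 35, 6 without the 4 libraries, 4 with a depth term, and 1 to 4 with single libraries left out. For the interaction the 0 became 2 with DESeq2 or a mean count of at least 50, 5 with voom, 6 without the 4 libraries and 4 with a depth term. Null E7.5 against E6.5 and E7.5 null against E6.5 WT each went from 0 to 2 with voom.

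The replicate number as a block, which does not pair these libraries, left each count of enzymes as it was and moved the pathway counts to 0 at E7.5, 1 for WT E6.5 against E5.5 and 0 for null E6.5 against E5.5. Leaving out 1 of 2 E5.5 WT or EpiSC libraries assumes that the lone one varies like the others. *Ndst4* was at 0 in all epiblasts and *Ndst3* at 5.22 CPM or less. At E6.5 the values of 0 for *Ndst3* were those of libraries over 40000000 counts, and the cause was not tested.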
